A study of Mus musculus with 39 samples.

Results

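Mylip, Scarb1, Npc1, Npc2, Stard4, Lipa and Soat2, 7 genes that act in cholesterol uptake into cells and in its movement inside them, were followed in mouse liver after a Western diet and after loss of the scavenger receptor CD163. The genes were chosen by name for these roles, with earlier results of these data known, and 7 of 7 were in the table and among the 15296 genes tested, out of 55416 gene identifiers. The livers came from male mice on a C57BL/6NTac background, littermates from crosses of heterozygous parents, with the allele CD163tm1(KOMP)Vlcg present in every cell of the knockouts. From 6 weeks of age the mice had a Western diet with fructose in the water, or chow with normal water, for 8 weeks. The groups held 15 knockout mice on Western diet, 15 wildtype mice on Western diet, 4 knockout mice on chow and 5 wildtype mice on chow. The diet and the fructose water were given together and cannot be told apart, and chow mice of both genotypes were few.

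Cholesterol reaches liver cells in lipoproteins. Whole particles are taken up by endocytosis and their cholesteryl esters are split by lysosomal acid lipase, the product of Lipa, after which the soluble protein NPC2 hands the sterol to the membrane protein NPC1 for export from the lysosome. Scarb1 encodes the receptor SR-BI, which takes cholesteryl ester from high-density lipoprotein without taking up the particle, and Mylip encodes a ubiquitin ligase that marks lipoprotein receptors for breakdown. STARD4 is a soluble carrier of sterol between membranes, and Soat2 encodes the enzyme that esterifies cholesterol in the endoplasmic reticulum of hepatocytes. Stard4 is known as a target of SREBP2, which is active when membrane sterol is low, and Mylip as a target of the liver X receptors, which are active when sterol is high.

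The promoters of Lipa, Npc2 and Mylip are shown, the 3 of the 7 genes with a sequence in use here. Lipa and Npc2 act in turn in the lysosome and 1 of them, Lipa, was called by diet. Mylip is the liver X receptor target among the 7. The RefSeq table held the sequence of these 3 of the 7 genes for use here, in build GRCm38.p6, and the bases before the start of the gene are given 5′ to 3′ on its own strand. Capitals mark CCAAT boxes, found as CCAAT or as ATTGG where the box lies on the other strand.
Lipa (chr19:34527475-34527724, minus strand): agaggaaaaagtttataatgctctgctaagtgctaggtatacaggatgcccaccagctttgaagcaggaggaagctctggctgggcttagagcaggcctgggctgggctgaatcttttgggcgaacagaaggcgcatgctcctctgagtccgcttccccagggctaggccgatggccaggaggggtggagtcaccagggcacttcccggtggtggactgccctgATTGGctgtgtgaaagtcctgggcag
Npc2 (chr12:84773113-84773362, minus strand): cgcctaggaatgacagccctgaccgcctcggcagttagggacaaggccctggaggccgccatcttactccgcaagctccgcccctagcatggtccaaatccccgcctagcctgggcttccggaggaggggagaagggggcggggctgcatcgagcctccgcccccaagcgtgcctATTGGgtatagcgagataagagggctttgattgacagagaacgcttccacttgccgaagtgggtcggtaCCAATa
Mylip (chr13:45389492-45389741, plus strand): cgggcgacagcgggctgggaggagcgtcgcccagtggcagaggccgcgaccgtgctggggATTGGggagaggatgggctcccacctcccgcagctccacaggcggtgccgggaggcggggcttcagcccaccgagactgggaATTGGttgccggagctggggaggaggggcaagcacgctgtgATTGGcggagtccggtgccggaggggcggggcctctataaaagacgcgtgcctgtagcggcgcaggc
Lipa held 1 CCAAT box, Npc2 held 2 and Mylip held 3, and 33.8% of 32851 RefSeq promoters held at least 1 in a window of the same length on either strand. No match was found in these 3 windows to the sterol regulatory element core TCACNCCAC (in 1.05% of promoters) or to the E-box CACGTG (6.02%), each searched on both strands. With the CCAAT box the only motif found, no overlap between motifs could arise. No liver X receptor element was searched for, so the windows do not bear on Mylip as a target of these receptors.

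Library totals lay between 8578865 and 30438808 counts. Levels are given as CPM, counts scaled to the library total after TMM, with 1 value for each mouse. Cd163 was at 0 to 0.661 CPM in knockout mice on Western diet, against 2.59 to 15.8 CPM in wildtype mice on Western diet, and at 0.44 to 0.746 CPM in knockout mice on chow, against 4.95 to 13.1 CPM in wildtype mice on chow, and the genotypes did not overlap on either diet. Libraries are called by the letters of their labels. By the mean log2 CPM of 19 sterol synthesis genes, 4 libraries matched the diet that is not on their label: knockout Western diet M (7.23) and wildtype Western diet A (7.20), where the 28 remaining Western diet libraries had 4.78 to 6.33, and knockout chow D (5.39) and wildtype chow A (5.38), where the 7 remaining chow libraries had 6.64 to 7.21. They were singled out from these same data. The diet and genotype tests are given with and without them, and Stard4, which is regulated with the sterol synthesis genes, is not independent of that choice. Over all 39 libraries, Pearson's r with the same mean was 0.81 for Stard4, -0.60 for Scarb1, -0.49 for Mylip and -0.46 for Lipa. It was -0.34 for Npc1, 0.31 for Soat2 and 0.30 for Npc2, with diet not removed. Results for these genes without the 4 libraries are therefore not independent of the choice either. The hepatocyte markers Alb, Ttr, Apoa1, Apoc3, Tat, Cps1, Ass1, Cyp2e1 and Hnf4a were present in every group, with none at 0 throughout a group.

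**Figure D1:**
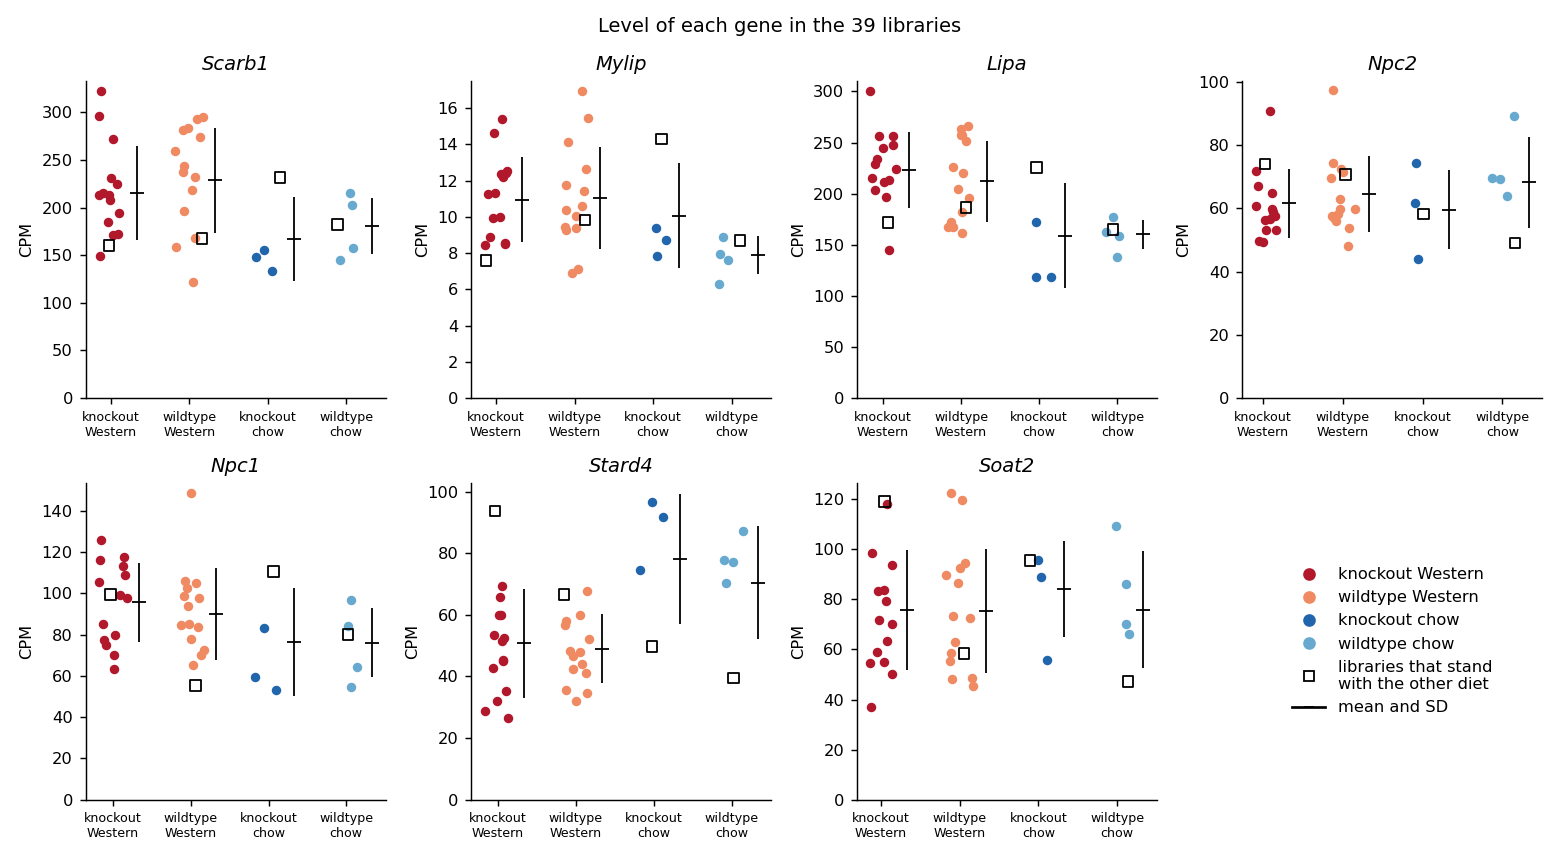
Level of each of the 7 genes (CPM, linear axis from 0) in 39 livers, 1 point a mouse, by genotype and diet. Bars give mean and SD, and squares mark the 4 libraries placed with the other diet. Stard4 is lower and Lipa higher on Western diet, while the genotypes overlap for every gene.

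Western diet was set against chow over both genotypes with edgeR's quasi-likelihood test. Stard4 fell to 0.673 times its chow level and Lipa rose to 1.36 times its chow level, so that a sterol carrier and the lysosomal lipase changed in opposite directions. With all 39 libraries, 2 of the 7 genes were called at an adjusted p under 0.05, where 14.6% of all tested genes were called. Without the 4 libraries, 5 of 7 were called, with Mylip, Scarb1 and Npc1 higher as well, where 29.9% of all tested genes were called. Npc2 and Soat2 were called in neither fit. DESeq2 called 3 of 7 with all libraries (Scarb1 in addition), where it called 16.9% of tested genes, and limma voom 5 of 7, where it called 23.7%. By direction, 1 of 7 was higher and 1 lower with all libraries, where 7.84% of tested genes were higher and 6.77% lower. In the fit without the 4 libraries 4 of 7 were higher and 1 lower, where 16.0% were higher and 13.9% lower. The median log2 difference of the 7 genes was 0.28 with all libraries, against -0.0019 over all tested genes. Liver is a mixture of cell types, so fewer cells of a type and less RNA per cell cannot be told apart.

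**Figure D2:**
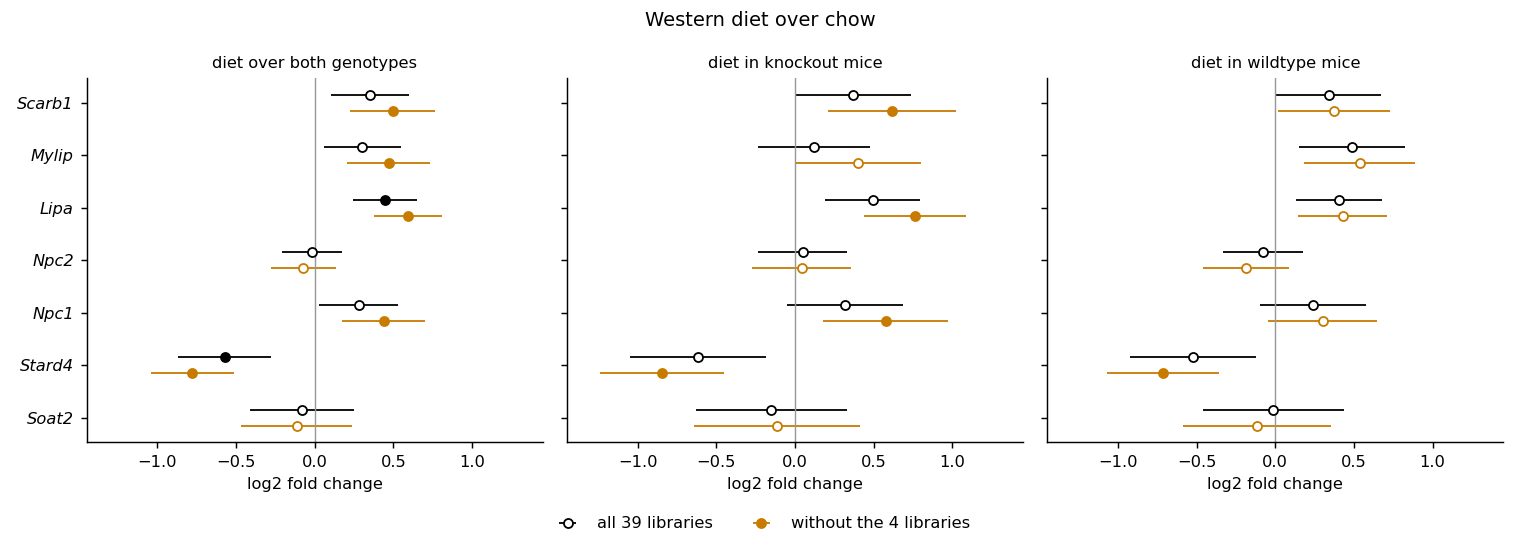
Log2 fold change of Western diet over chow for the 7 genes, over both genotypes, in knockout mice and in wildtype mice, with all 39 libraries and without the 4 placed with the other diet. Lines are approximate 95% intervals and filled points passed an adjusted p under 0.05. Stard4 lies left of 0 and Lipa right of 0 in all 3 comparisons.

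Mylip, the ubiquitin ligase of lipoprotein receptors, had the lowest level of the 7. It was at 7.58 to 15.4 CPM (median 11.2) in knockout mice and at 6.88 to 17.0 CPM (median 10.4) in wildtype mice on Western diet. On chow it was at 7.86, 9.36, 8.73 and 14.3 CPM in knockout mice A to D and at 8.69, 6.28, 7.59, 7.95 and 8.90 CPM in wildtype mice A to E. Knockout chow D was the highest chow library and 4 of 30 Western diet livers exceeded it, whereas 21 of 28 exceeded the highest of the other 7 chow livers. The log2 difference was 0.30 ± 0.12 (SE), with an adjusted p of 0.0917 by edgeR's quasi-likelihood test with Benjamini-Hochberg adjustment. The fit without the 4 libraries gave 0.47 ± 0.14, with an adjusted p of 0.00834 in the same test. Leaving out knockout chow D alone gave 0.42 (adjusted p 0.0172), in a fit that called 3505 genes, against 2234 with all libraries.

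Scarb1, the receptor for high-density lipoprotein, was at 149 to 323 CPM (median 213) in knockout mice and at 122 to 295 CPM (median 237) in wildtype mice on Western diet. On chow it was at 155, 148, 133 and 231 CPM in knockout mice and at 182, 215, 145, 158 and 203 CPM in wildtype mice. The groups overlapped, with knockout chow D again the highest chow library and wildtype Western diet C (122 CPM) below every chow liver. The log2 difference was 0.35 ± 0.13 (SE), which missed the threshold with an adjusted p of 0.0532 by edgeR's quasi-likelihood test with Benjamini-Hochberg adjustment. It passed in 10 of 39 fits that left out 1 library (knockout Western diet J, M, N or O, wildtype Western diet A, C, N or O, wildtype chow B or knockout chow D), at most 0.46 without knockout chow D, a fit that called 3505 genes. Without the 4 libraries it was 0.50 ± 0.14 with an adjusted p of 0.00622.

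Lipa, the lysosomal acid lipase, was at 144 to 301 CPM (median 224) in knockout mice and at 162 to 266 CPM (median 205) in wildtype mice on Western diet. Chow livers had 172, 119, 118 and 226 CPM in knockout mice and 165, 178, 138, 162 and 159 CPM in wildtype mice. Of 30 Western diet livers 29 lay above the chow mean, and without the 4 libraries 23 of 28 lay above every chow liver (highest 178 CPM). Lipa rose by 0.45 ± 0.10 (log2, SE), an adjusted p of 0.0048 by edgeR's quasi-likelihood test with Benjamini-Hochberg adjustment, and by 0.59 ± 0.11 (adjusted p 0.000117) without the 4 libraries. It was called in 39 of 39 fits that left out 1 library.

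Npc2, the soluble partner that takes up sterol after the lipase, was at 49.4 to 90.9 CPM (median 58.9) in knockout mice and at 48.3 to 97.7 CPM (median 59.9) in wildtype mice on Western diet. On chow it was at 74.4, 44.0, 61.8 and 58.3 CPM in knockout mice and at 49.0, 69.8, 69.4, 64.1 and 89.3 CPM in wildtype mice. The diets overlapped, and 2 of 30 Western diet livers lay above the highest chow liver. The log2 difference was -0.02, with an approximate 95% interval of -0.21 to 0.17 and an adjusted p of 0.932 by edgeR's quasi-likelihood test with Benjamini-Hochberg adjustment. With the 4 libraries left out it was -0.07 (adjusted p 0.645).

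Npc1, the membrane protein that exports the sterol, was at 63.5 to 126 CPM (median 99.1) in knockout mice and at 55.4 to 149 CPM (median 85.4) in wildtype mice on Western diet. On chow it was at 59.5, 83.1, 53.1 and 111 CPM in knockout mice and at 80.0, 97.0, 64.2, 54.7 and 84.0 CPM in wildtype mice. The groups overlapped, and knockout chow D was the highest chow library. Of 30 Western diet livers 5 exceeded it, and without the 4 libraries 14 of 28 exceeded every chow liver. The log2 difference was 0.28 ± 0.13 (SE; adjusted p 0.129) with all libraries and 0.44 ± 0.13 (adjusted p 0.0126) without the 4, by edgeR's quasi-likelihood test with Benjamini-Hochberg adjustment. It was 0.41 (adjusted p 0.0241) without knockout chow D alone, in the fit that called 3505 genes. Npc1 shares 511 exon bases, or 4.52% of its exons, with Rmc1 on the other strand, and reads there may be split by the counting. The other 6 genes share no exon base with another gene in the annotation used.

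Stard4, the soluble sterol carrier, was at 26.6 to 93.6 CPM (median 51.6) in knockout mice and at 32.1 to 67.6 CPM (median 48.1) in wildtype mice on Western diet. Chow livers had 74.5, 91.6, 96.5 and 49.6 CPM in knockout mice and 39.5, 70.2, 87.3, 77.8 and 77.2 CPM in wildtype mice. Knockout Western diet M (93.6 CPM) lay among the chow livers, and knockout chow D (49.6 CPM) and wildtype chow A (39.5 CPM) lay among the Western diet livers, whereas wildtype Western diet A (66.7 CPM) lay within its labelled diet. Without the 4 libraries, which were chosen by sterol synthesis genes that go with Stard4, the diets did not overlap, with 28 of 28 Western diet livers at 26.6 to 69.5 CPM and 7 of 7 chow livers at 70.2 to 96.5 CPM. The gap between them was small, and the share of all tested genes that separate the diets in the same way is not given here. Stard4 fell by 0.57 on the log2 scale (SE 0.15; adjusted p 0.0112) with all libraries and by 0.78 (SE 0.14; adjusted p 5.78e-05) without the 4, by edgeR's quasi-likelihood test with Benjamini-Hochberg adjustment. With the replicate letters as a block it was -0.45 and no longer called (adjusted p 0.113).

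Soat2, the cholesterol esterifying enzyme, was at 37.2 to 119 CPM (median 71.6) in knockout mice and at 45.5 to 122 CPM (median 72.6) in wildtype mice on Western diet. Chow livers had 89.0, 95.8, 55.8 and 95.5 CPM in knockout mice and 47.2, 109, 70.3, 86.1 and 66.3 CPM in wildtype mice. Western diet livers spread on both sides of the chow range, with 4 of 30 above it and 2 below it. The log2 difference was -0.08, with an approximate 95% interval of -0.41 to 0.25 and an adjusted p of 0.777 by edgeR's quasi-likelihood test with Benjamini-Hochberg adjustment. With the 4 libraries left out it was -0.12 (adjusted p 0.662).

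Within each genotype the diet groups were smaller. In knockout mice 0 of 7 genes were called with all libraries by edgeR's quasi-likelihood test, where 0.00654% of tested genes were called, 2 of 7 had an unadjusted p under 0.05 (19.2% of tested genes), DESeq2 called 1 (Lipa), where it called 2.46% of the genes it gave an adjusted p, and limma voom called 2 (Stard4 and Lipa), where it called 5.26%. Leaving out knockout chow D alone gave a call for Stard4 (-0.77) and Lipa (0.73), in a fit that called 1408 genes here, against 1 with all libraries. Leaving out knockout Western diet M alone gave a call for Stard4, and the count over all genes in that fit is not given here. Without the 4 libraries 4 of 7 were called in knockout mice, where 17.2% of tested genes were called. Lipa rose by 0.76 (log2, adjusted p 0.00225), Scarb1 by 0.62 (adjusted p 0.0365) and Npc1 by 0.58 (adjusted p 0.0457), and Stard4 fell by 0.85 (adjusted p 0.00437), by edgeR's quasi-likelihood test with Benjamini-Hochberg adjustment. In wildtype mice 0 of 7 genes were called with all libraries by edgeR's quasi-likelihood test, where 1.39% of tested genes were called, although 3 of 7 had an unadjusted p under 0.05, as did 17.2% of tested genes. DESeq2 and limma voom also called 0 of 7, where they called 3.99% and 6.67%. Without the 4 libraries 1 of 7 was called, Stard4, which fell by 0.71 (log2, SE 0.18; adjusted p 0.0119 by edgeR's quasi-likelihood test with Benjamini-Hochberg adjustment), where 8.66% of tested genes were called. Without the 4 libraries the calls came in knockout mice and not in wildtype mice for Lipa, Scarb1 and Npc1, and the test of the difference between genotypes called none of the 7.

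Knockout was then set against wildtype on each diet, which asks whether loss of CD163 shifts these genes. None of the 7 was called on Western diet, on chow or in the diet by genotype interaction: edgeR's quasi-likelihood test, DESeq2 and limma voom each called 0 of 7 in the 3 comparisons, and 0 of 7 had an unadjusted p under 0.05 in any of them. Among all tested genes 0.00654% were called on Western diet and 0.00654% on chow, 1 gene in each, Cd163 itself, and 0% in the interaction. At an unadjusted p under 0.05 there were 5.08% on Western diet, 2.74% on chow and 1.86% in the interaction. The fit without the 4 libraries again called 0 of 7 in each, with 0.00647% of tested genes called on either diet and 0% in the interaction.

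On Western diet the log2 difference of knockout over wildtype lay between -0.09 for Scarb1 and 0.09 for Npc1, given here with approximate 95% intervals. Lipa had 0.08 (-0.11 to 0.26), with means of 223 ± 37.3 CPM in knockout mice and 212 ± 39.3 CPM in wildtype mice (SD, n = 15 each). Stard4 had 0.06 (-0.24 to 0.35), with means of 50.8 ± 17.7 CPM in knockout mice and 48.9 ± 11.2 CPM in wildtype mice. Npc2 had -0.07 (-0.25 to 0.11), Mylip -0.01 (-0.24 to 0.22) and Soat2, the least certain, 0.01 (-0.31 to 0.33). On chow, with 4 knockout mice and 5 wildtype mice, the intervals were wider. Mylip had 0.36 (-0.07 to 0.78), which was 0.14 without the 4 libraries, and Npc1 had 0.01 (-0.42 to 0.44), which was -0.23 without them. Scarb1 had -0.12 (-0.34 without the 4), Npc2 -0.20 (-0.31) and Lipa -0.01 (-0.25), while Stard4 had 0.15 (0.14) and Soat2 0.15 (-0.076). On Western diet the fit without the 4 gave between -0.09 for Scarb1 and 0.08 for Lipa. A p that missed the threshold does not show that the genotypes are alike.

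**Figure D3:**
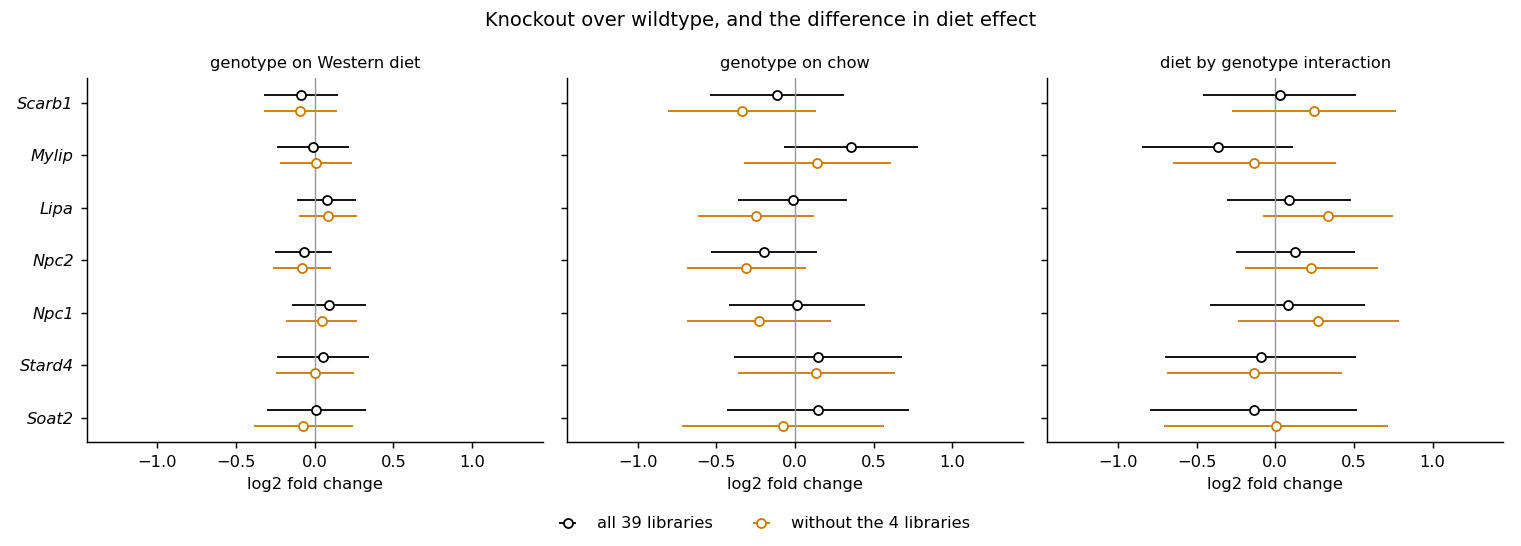
Log2 fold change of knockout over wildtype for the 7 genes on Western diet and on chow, and the diet by genotype interaction, with all 39 libraries and without the 4 placed with the other diet. Lines are approximate 95% intervals and no point is filled, since none passed an adjusted p under 0.05. Intervals on Western diet are the narrowest of the 3.

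Per kilobase of exon the order of the 7 genes differed from that in CPM. The values below are CPM per kilobase, as mean ± SD over mice, with exon lengths from an annotation of GRCm38. Each length merges the exons of every annotated transcript of the gene, such as 2213 bases for Soat2, 5438 for Npc2 and 11317 for Npc1. The order depends on these lengths, and which transcripts the livers used was not tested. On Western diet, with all libraries, Soat2 was at 34.2 ± 10.9 in knockout mice and 34.0 ± 11.2 in wildtype mice, and Lipa at 32.9 ± 5.51 in knockout mice and 31.3 ± 5.80 in wildtype mice, within 1 SD of each other. Scarb1, at 25.3 ± 5.83 in knockout mice and 26.9 ± 6.47 in wildtype mice, lay below Lipa by more than 1 SD in knockout mice and by less in wildtype mice. Npc2 followed with 11.3 ± 2.01 in knockout mice and 11.9 ± 2.21 in wildtype mice. Stard4 was at 9.10 ± 3.16 in knockout mice and 8.76 ± 2.00 in wildtype mice. Npc1, at 8.45 ± 1.71 in knockout mice and 7.94 ± 1.97 in wildtype mice, did not differ from Stard4 beyond their spread. Mylip was the lowest, at 3.38 ± 0.726 in knockout mice and 3.41 ± 0.874 in wildtype mice. On chow Stard4 reached 14.0 ± 3.79 in knockout mice and 12.6 ± 3.28 in wildtype mice, where Npc2 was at 10.97 ± 2.30 in knockout mice and 12.6 ± 2.66 in wildtype mice, and their mean ± SD ranges overlapped. The chow levels of Stard4 were 15.7 ± 2.06 in knockout mice and 13.99 ± 1.26 in wildtype mice without the 4 libraries, and those of Npc2 were 11.05 ± 2.81 in knockout mice and 13.4 ± 2.04 in wildtype mice.

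The other genes of the pathway were read from 4 lists of lipoprotein uptake, lysosomal sterol handling, sterol carriers and sterol esters, which hold 54 genes, 49 of them tested. On Western diet 6 of the 49 rose and 2 fell with all libraries, 16.3% against 14.6% of all tested genes, a share close to the background. The 6 included 5 of the 18 tested sterol carriers. Gramd1b, which moves sterol from the plasma membrane to the endoplasmic reticulum, rose the most (log2 1.32, adjusted p 0.00226 by edgeR's quasi-likelihood test with Benjamini-Hochberg adjustment), to means of 10.2 CPM in knockout mice and 8.06 CPM in wildtype mice on Western diet, against 3.75 CPM in knockout mice and 3.48 CPM in wildtype mice on chow. Scp2, a peroxisomal thiolase and lipid carrier, rose by 0.43 (adjusted p 0.00459). The oxysterol-binding protein relatives Osbpl8 and Osbpl2 rose by 0.47 (adjusted p 0.00834) and 0.23 (adjusted p 0.0246). Vapb, a membrane anchor of some proteins of this family, rose by 0.24 (adjusted p 0.017).

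The lysosomal membrane protein Lamp1 rose by 0.28 (log2, adjusted p 0.0167 by edgeR's quasi-likelihood test with Benjamini-Hochberg adjustment). Tmem97, which binds NPC1, fell by 0.33 (adjusted p 0.0386), and Ube2d2a, of the family of ubiquitin-conjugating enzymes that work with the Mylip product, fell by 0.11 (adjusted p 0.0366). None of the 6 tested sterol ester genes was called, and 2 of the 10 lysosomal and 1 of the 15 uptake genes were. The fit without the 4 libraries had 15 of 49 higher and 5 lower, 40.8% against 29.9% of all tested genes. By diet within genotypes 15 of 49 were called in knockout mice without the 4 libraries (30.6%, against 17.2% of tested genes) and 6 of 49 in wildtype mice (12.2%, against 8.66%). Between genotypes and in the interaction that fit called 0 of 49. With all libraries, edgeR's quasi-likelihood test called 0 of 49 within genotypes and between them. At an unadjusted p under 0.05 there were 14 of 49 in the diet comparison of knockout mice (19.2% of all tested genes) and 12 in that of wildtype mice (17.2%). Between genotypes there were 1 on Western diet (5.08%) and 4 on chow (2.74%), and 3 in the interaction (1.86%). DESeq2 called 2 in knockout mice (2.46% of the genes it gave an adjusted p) and 2 in wildtype mice (3.99%), and limma voom 4 in knockout mice (5.26%) and 5 in wildtype mice (6.67%). Both called 0 between genotypes and in the interaction.

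Stard4 shared its direction with the sterol synthesis genes, of which 18 of 19 were called lower on Western diet (median log2 -1.27). The 3 with the smallest p were Mvk (-1.27), Cyp51 (-1.78) and Msmo1 (-1.93). In the fit without the 4 libraries the same number was called, with a median of -1.71. The 4 were chosen by the mean of these same genes, so the larger difference is not independent of that choice. Mylip stood in a list of 11 liver X receptor targets of which 7 were called higher (median 0.48), those with the smallest p being Srebf1 (1.19), Abcg5 (1.41) and Abcg8 (1.19). Its own difference of 0.30 did not pass. In the fit without the 4 libraries 8 of the 11, Mylip among them, were higher and 1 lower (median 0.71). Over 28 Western diet livers, with genotype means removed and the 2 that stood with chow left out, Stard4 went with the mean of the sterol synthesis genes (Pearson r 0.615, permutation p 0.00027; Spearman rho 0.623, permutation p 0.00041). The adjusted p of r was 0.00324 over the 84 relations computed, and r was 0.52 without the 2 livers farthest from the median of the list mean. It was 0.667 within knockout mice and 0.64 within wildtype mice.

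**Figure D4:**
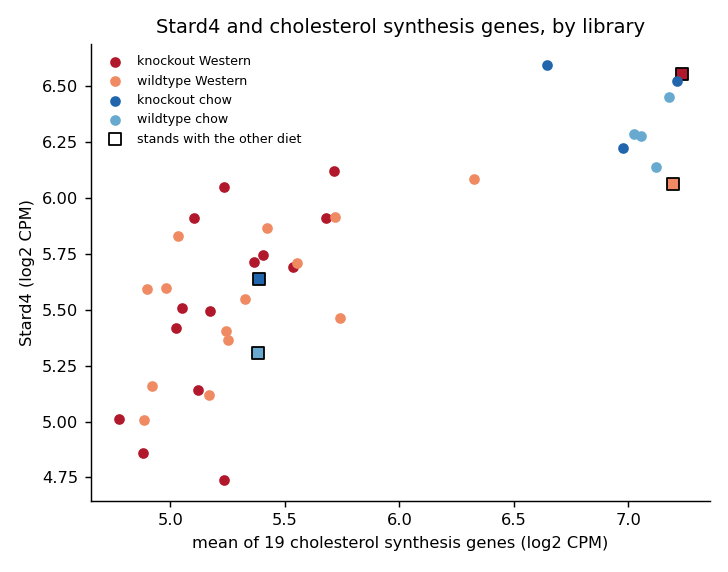
Stard4 (log2 CPM) against the mean log2 CPM of 19 sterol synthesis genes, 1 point a liver, coloured by group, with squares for the 4 libraries placed with the other diet. The squares were chosen by the x axis. Livers with more sterol synthesis RNA have more Stard4, and on the Stard4 axis wildtype Western diet A (66.7 CPM) stays within the range of its labelled diet.

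The 84 relations set the 7 genes against sterol synthesis and 11 lists of cell type markers, and 20 passed at an adjusted p of r under 0.05. The share of all tested genes that go as closely with the same lists was not computed. Whether these relations are particular to the 7 genes was therefore not tested. Npc2, which was not called by diet, followed the mean of the tested markers of recruited macrophages, such as Trem2 and Cd9 (r 0.769, permutation p 1e-05, the smallest that the permutations can give; rho 0.643, permutation p 0.00036; adjusted p of r 0.00042). Without the 2 farthest livers r was 0.638, and it was 0.845 in knockout mice and 0.757 in wildtype mice. Npc2 also went with stellate cell markers (r 0.729, permutation p 1e-05; rho 0.69, permutation p 7e-05; adjusted p of r 0.00042; r without the 2 farthest 0.606).

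Lipa went with Cfd, the 1 tested gene of the 5 fat cell markers (r 0.715, permutation p 2e-05; rho 0.591, permutation p 0.00114; adjusted p of r 0.00042; r without the 2 farthest 0.597), while Scarb1 went against it (r -0.647, permutation p 0.00018; rho -0.634, permutation p 0.0004; adjusted p of r 0.00302; r without the 2 farthest -0.554). Lipa also passed with the sterol synthesis mean (r 0.513, permutation p 0.00518; rho 0.507, permutation p 0.00642; adjusted p of r 0.0348; r without the 2 farthest 0.407). It passed in the opposite direction with Cela1, the 1 tested gene of the 6 pancreas markers (r -0.551, permutation p 0.00252; rho -0.548, permutation p 0.00298; adjusted p of r 0.0212; r without the 2 farthest -0.513). The rest of that list was too low to test. Cpa1, Prss2, Ctrb1 and Pnlip were at 0 throughout knockout chow mice, and Amy2a5 throughout wildtype chow and both Western diet groups. Whether Cela1 marks pancreas cells in these livers was not tested. For Lipa, which macrophages also express, neither macrophage relation passed. Its r was -0.197 with Kupffer cell markers (permutation p 0.311; rho -0.25, permutation p 0.196) and 0.0652 with recruited macrophage markers (permutation p 0.741; rho -0.00766, permutation p 0.969). Mylip went with endothelial markers (r 0.749, permutation p 2e-05; rho 0.703, permutation p 2e-05; adjusted p of r 0.00042; r without the 2 farthest 0.689). Npc1 went with hepatocyte markers (r 0.609, permutation p 0.00061; rho 0.665, permutation p 0.0002; adjusted p of r 0.0064; r without the 2 farthest 0.561), with an r of 0.769 in knockout mice and 0.384 in wildtype mice, a difference that was not tested. The remaining relations that passed are given by r, then by r without the 2 farthest livers. Mylip went with stellate (0.639, 0.648) and lymphocyte markers (0.531, 0.45) and against Cela1 (-0.472, -0.491). Npc2 went with endothelial (0.567, 0.605) and Kupffer cell markers (0.501, 0.358) and against Cela1 (-0.477, -0.273). Npc1 went against endothelial (-0.474, -0.427) and bile duct markers (-0.482, -0.502), and Stard4 against lymphocyte markers (-0.491, -0.496). Scarb1 went with Cela1 (0.511, 0.488) and against the sterol synthesis mean (-0.515, -0.358). Among these, only Mylip with stellate and lymphocyte markers and Scarb1 with Cela1 also had an adjusted permutation p of rho under 0.05. Soat2 passed by r with none of the 12 lists.

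**Figure D5:**
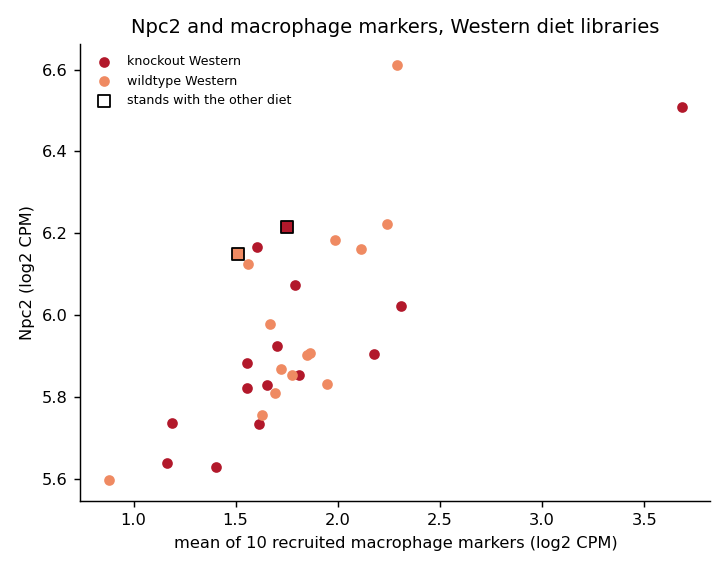
Npc2 (log2 CPM) against the mean log2 CPM of the recruited macrophage markers in Western diet livers, 1 point a liver, by genotype, with squares for the libraries placed with chow. Livers with more of these markers have more Npc2 in both genotypes.

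Marker sums are given for the lists that bear on these relations, with all libraries. The summed level of 12 Kupffer cell markers was 195 to 729 CPM in knockout mice and 127 to 719 CPM in wildtype mice on Western diet, against 186 to 356 CPM in knockout mice and 211 to 386 CPM in wildtype mice on chow. That of 11 recruited macrophage markers was 68.3 to 205 CPM in knockout mice and 63.5 to 150 CPM in wildtype mice on Western diet, against 82.7 to 159 CPM in knockout mice and 101 to 168 CPM in wildtype mice on chow. That of 9 endothelial markers was 194 to 487 CPM in knockout mice and 200 to 487 CPM in wildtype mice on Western diet, against 351 to 440 CPM in knockout mice and 307 to 425.8 CPM in wildtype mice on chow. These 3 sums overlapped between the diets.

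The sum of 5 fat cell markers, of which Cfd is the only one tested, had a median of 22.6 CPM in knockout mice (0.377 to 160) and 8.94 CPM in wildtype mice (0.125 to 154) on Western diet, against 1.03 CPM in knockout mice (0.377 to 31.4) and 0.826 CPM in wildtype mice (0.308 to 6.16) on chow. That of 8 red blood cell markers had a median of 170 CPM in knockout mice and 138 CPM in wildtype mice on Western diet, against 93.7 CPM in knockout mice and 109 CPM in wildtype mice on chow. Both medians were higher on Western diet, and the ranges overlapped. Over both genotypes, where 7.84% of tested genes were called higher and 6.77% lower, 1 of 12 Kupffer cell markers (Cd5l), 0 of 10 recruited macrophage markers and 1 of 9 stellate markers (Lrat), 4 of 6 red blood cell markers (Hba-a1, Hbb-bs, Hbb-bt and Alas2) and Cfd were called higher on Western diet, and 3 of 9 endothelial markers (Clec4g, Ehd3 and Fcgr2b) lower. In the fit without the 4 libraries, where 16.0% were higher and 13.9% lower, the calls were 3 Kupffer cell, 2 stellate and 5 red blood cell markers and Cfd higher, 1 stellate, 4 endothelial and 4 of 9 hepatocyte markers lower (0 of 9 with all libraries), and 1 recruited macrophage marker in each direction. The part of any of these cells in the diet results of the 7 genes was not tested.

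The genes varied from mouse to mouse within the same diet. Over the 28 Western diet livers the coefficient of variation was lowest for Lipa (17.2%) and Npc2 (18.4%) and highest for Soat2 (31.1%), whose highest liver had 3.29 times its lowest. Mylip had 22.9%, Scarb1 22.7%, Npc1 21.5% and Stard4 24.9%. Wildtype Western diet G, L and M, which had the highest acute phase means of all libraries, were high for Scarb1 (295, 283 and 293 CPM) and low for Lipa (172, 167 and 162 CPM), Stard4 (34.6, 35.6 and 32.1 CPM) and Soat2 (48.4, 45.5 and 48.2 CPM). The next highest Western diet libraries differed from these, with Lipa at 258 CPM and Stard4 at 56.7 CPM in wildtype F and Lipa at 244 CPM and Stard4 at 59.9 CPM in knockout E. L and M were also the closest pair of the 226 pairs of libraries within groups. Their chi-square per gene was 3.98, against 10.4 for the next closest pair and a median of 54.3. They are labelled and were counted as 2 mice, and whether they came from 1 mouse was not tested.

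The genes whose log2 CPM went most closely with each of the 7 over 39 livers are given as a description of Pearson's r, and the livers share the 2 diets. Lipa went with Tmem64 (0.908), Cryz (0.906) and Stom (0.90). Npc1 went with Cry2 (0.869), Sh3d19 (0.845) and Ipmk (0.831), and Soat2 with Sgk2 (0.847), Mrnip (0.842) and Grpel2 (0.842). Stard4 went with Hsd17b7 (0.848), Dsg2 (0.82) and Fdft1 (0.81), the first and last of which are sterol synthesis genes. Scarb1 went with Mug1 (0.817), Gfra1 (0.808) and Met (0.774), Npc2 with Mmp14 (0.772), Igsf8 (0.747) and Rhoc (0.744), and Mylip with Acer2 (0.677), Cidec (0.671) and Ifi27l2b (0.67). Without the 4 libraries the 21 values lay between 0.652 (Mylip with Ifi27l2b) and 0.931 (Lipa with Stom).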

How the data were processed

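RNA from snap-frozen liver of 39 male mice was read in pairs on a NovaSeq from NEBNext Ultra libraries, per the labels' protocols. The deposited values are unnormalized counts of reads in genes, which the authors made with STAR 2.7.8a and featureCounts 2.0 on GRCm39, per the submitters' processing notes. Which annotation release was used, and whether counting used strand, is not given in the sources used here. Symbols and exon lengths came from an annotation of GRCm38.

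Genes were filtered with edgeR 4.0.16 (filterByExpr by group, at least 10 counts and a total of 15), scaled by TMM and fitted with a quasi-likelihood model with 1 term per group over all 39 libraries (R 4.3.3, robust estimation). The test was checked on simulated data. P-values were adjusted by Benjamini-Hochberg over 15296 genes, or 15461 without the 4 libraries, with a threshold of 0.05. Standard errors are those implied by the F statistic, and log2 CPM used a prior count of 2. Relations used 100000 permutations, 2-sided (scipy 1.17.1). Each library is labelled as a separate mouse, so p-values measure the spread between mice. The members and the gene lists were chosen with earlier results of these data known, and the genes named are the 7 members, Cd163, the called genes of the 4 pathway lists, the 3 called genes of smallest p in the sterol synthesis and liver X receptor lists and the 3 closest genes per member. Marker genes were named after their values were seen. Alternatives were DESeq2 1.42.0, limma 3.58.1 voom with quality weights, RLE size factors, no filter, the letters as a block, only the groups compared, and leaving out or summing libraries. Letters are not said to pair mice. Same-letter deviations of knockout and wildtype correlated at a mean r of -0.0104 (-0.325 to 0.376) over 15 Western diet pairs. Over 4 chow pairs the mean r was -0.0656. A mean near 0 cannot exclude that letters mark a shared litter, cage or batch.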

Additional observations from a re-analysis of the deposited data

Results flagged for a closer look

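Within its own group, 1 library stood far below the others for Stard4 and 1 for Soat2, by the ratio of the gap to the range in Dixon's test. Chance flags about 1 in 20 groups, and 14 groups (7 genes in 2 chow groups) were screened. Stard4 in wildtype chow A had a log2 CPM of 5.308, or 39.5 CPM, against 70.2 to 87.3 CPM in the other 4 wildtype chow mice, and the gap was 0.725 of the range. This library is 1 of the 4 placed with the other diet. Soat2 in knockout chow C had a log2 CPM of 5.805, or 55.8 CPM, against 89.0 to 95.8 CPM in the other 3 knockout chow mice, and the gap was 0.863 of the range.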

How the results depend on the processing

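Of 364 values of the 7 genes under alternatives other than leaving out 1 library, 325 kept direction and side of the threshold, 15 passed newly, 1 was lost and 23 changed sign. The value lost was Stard4 by diet with the replicate block (-0.45, adjusted p 0.113). Stard4 and Lipa stayed called by diet in 39 of 39 fits without 1 library. Mylip and Npc1 were called by diet without knockout chow D (log2 0.42 and 0.41), where 3505 genes were called. Lipa was called in knockout mice without the same library (0.73), where 1408 genes were called. The cause was not tested. The lowest count of any of the 7 genes was 72, and an effect of depth was not tested.

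Genes called by diet over both genotypes (2234) numbered 3622 with voom, 1262 without a filter and 4622 without the 4 libraries, and 829 (without knockout chow B) to 3505 (without knockout chow D) without 1 library. For diet in knockout mice (1) they were 230 with DESeq2, 804 with voom, 2657 without the 4 and 0 with no filter, the block, only the groups compared, L and M summed or without the 7 acute phase libraries, and 0 to 1408 (without knockout chow D) without 1 library. For diet in wildtype mice (212) they were 515 with DESeq2, 1020 with voom, 44 without a filter, 50 with the replicate block, 1339 without the 4 and 116 with L and M summed, and 0 (without wildtype chow B) to 556 (without wildtype chow A) without 1 library. Genotype on Western diet (1) gave 3 with DESeq2 and 3 without a filter. Genotype on chow (1) gave 2 with DESeq2, 0 with voom and 2 without the acute phase libraries. The interaction (0) gave 1 without them.

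Sign changes, all in values that missed the threshold, were as follows. By diet, Npc2 was 0.0065 without the acute phase libraries, and in knockout mice -0.084 with voom and -0.039 with the block, and Soat2 in wildtype mice was 0.028 with L and M summed. By genotype on Western diet, Mylip was 0.0018 with voom and 0.0081 without the 4, Scarb1 0.0056 without the acute phase libraries, Stard4 -0.037 with voom and -0.054 without the acute phase libraries, Lipa -0.015 without them, and Soat2 -0.011 with voom, -0.073 without the 4, -0.031 with L and M summed and -0.13 without the acute phase libraries. By genotype on chow, Npc1 was -0.16 with voom and -0.23 without the 4, Stard4 -0.022 without the acute phase libraries, and Soat2 -0.076 without the 4 and -0.083 without the acute phase libraries. In the interaction, Scarb1 was -0.023 with the block, Npc1 -0.066 and Lipa -0.0098 without the acute phase libraries, and Soat2 0.0031 without the 4.

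Leaving out 1 library also changed signs. By diet Npc2 spanned -0.079 to 0.048 and Soat2 -0.16 to 0.0037. In knockout mice Npc2 spanned -0.078 to 0.17, and in wildtype mice Npc2 spanned -0.18 to 0.036 and Soat2 -0.14 to 0.16. By genotype on Western diet Mylip spanned -0.053 to 0.045, Stard4 -0.034 to 0.10 and Soat2 -0.051 to 0.076. By genotype on chow Npc1 spanned -0.24 to 0.15, Stard4 -0.0030 to 0.29 and Lipa -0.25 to 0.11. In the interaction Scarb1 spanned -0.070 to 0.24, Npc1 -0.064 to 0.33, Stard4 -0.24 to 0.058 and Lipa -0.036 to 0.32.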
